A study of Mus musculus with 6 samples.

Results

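Secretory proteins begin their route at the endoplasmic reticulum (ER), and the genes described here encode the machinery of the first steps. The signal recognition particle binds a signal peptide as it leaves the ribosome and docks on its receptor at the ER membrane. The nascent chain then enters the Sec61 channel, helped by the signal sequence receptor complex and by Sec62 and Sec63, and signal peptidase removes the signal. Folded cargo leaves the ER in vesicles coated by COPII, which the GTPase Sar1 assembles from the Sec23 and Sec24 inner layer and the Sec13 and Sec31 outer layer. COPI, or coatomer, coats the vesicles that return from the Golgi, and the p24 proteins, named Tmed, cycle between both compartments as cargo receptors. In liver this route carries albumin, other plasma proteins and the apolipoproteins.

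Members were the protein-coding genes of the deposited table whose symbols carry these family names (Sec and a digit, Ssr, Srp and a digit, Srpr, Tmed, Cop subunits, Sar1), which gave 58 of 12366 listed genes. By role, 20 belonged to targeting and translocation, 17 to COPII and its partners, 8 to COPI and 10 to the p24 family. The other 3, Sec14l1, Sec14l2 and Sec14l4, matched by name only: they encode lipid-binding proteins of the SEC14 type and are kept apart. RNA was taken from livers of male C57BL/6 mice kept on chow until 22 weeks of age and then fasted for 48 hours. The groups were wild type (WT) and Acss2-/- mice (Acss2-KO), with 3 libraries each, written WT1 to WT3 and KO1 to KO3 after their replicate numbers, and how the allele was made is not stated in the labels. Acss2 makes acetyl-CoA from acetate in cytosol and nucleus. Nothing says which animal gave which library, so p-values reflect only the scatter among these libraries, some of which may be technical.

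Values are given as counts-per-million (CPM), and depth was estimated at 21.8 to 30.8 M reads per library. Acss2 itself was at 76.2 ± 4.19 CPM (SD, n = 3) in WT and 2.42 ± 1.10 CPM (SD, n = 3) in Acss2-KO. Tests ran over the 9355 genes whose mean reached 5 CPM, by limma on log2(CPM + 1) with Benjamini-Hochberg adjustment over all of them, and a gene is called changed at an adjusted p below 0.05. Hepatocyte markers summed to 84998 to 105493 CPM in WT and 94603 to 103881 CPM in Acss2-KO. Alb, the largest of them, was at 69738 ± 10086 and 79085 ± 3787 CPM and did not pass, nor did Apob at 8320 ± 1721 and 5448 ± 1914 CPM, while Ttr fell from 4260 ± 45.0 to 1260 ± 391 CPM (SD, n = 3 each, limma adjusted p = 0.0015), the 1 called of 5. Summed markers of blood cells were lower in every Acss2-KO library: erythroid markers spanned 162 to 280 CPM in WT and 41.2 to 67.0 CPM in Acss2-KO (5 of 5 lower), and leukocyte and plasma cell markers 30.7 to 119 CPM and 14.3 to 17.7 CPM (3 of 3 tested lower). For Kupffer cell markers the ranges were 167 to 498 CPM and 64.5 to 133 CPM (3 of 7 lower), and for cholangiocyte markers 32.2 to 37.2 CPM and 14.0 to 17.3 CPM. Only 2 of 5 listed cholangiocyte markers were found (4 of 7 for leukocytes and plasma cells, 5 of 6 for hepatocytes). The fall of the cholangiocyte sum was that of Spp1 alone (30.9 ± 1.70 to 6.55 ± 0.400 CPM). Sox9 was higher (3.22 ± 1.10 to 9.52 ± 2.19 CPM, SD, n = 3 each). The ranges overlapped for sinusoidal endothelium (191 to 304 and 216 to 295 CPM, 1 of 6 higher and 1 lower) and stellate cells (225 to 361 and 198 to 344 CPM, 2 of 5 lower). No list had a found marker at 0 in all 6 libraries, and the part of these cells in the results below was not tested. In such bulk samples fewer cells of a type and less RNA per cell cannot be told apart.

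WT3 stood apart from the other WT libraries by transcript length. Among the 53 tested genes of the 4 classes, its log2(CPM + 1) minus the mean of WT1 and WT2 had a median of 0.25 for the 16 genes with a longest transcript under 1500 bases, and of -0.32 for the 26 genes over 3000 bases. Of those short genes 14 were above 0, and of the long ones 6. Across the 53 genes the difference had a Pearson r of -0.64 with log2 length, and across 9003 tested genes with a known length the r was -0.47 (these genes share the same libraries, so the values are descriptions). For the genotype difference the r over the 53 genes was 0.11. KO1 also lay low in these 53 genes, with little relation to length (r = -0.04). Its log2(CPM + 1) minus the mean of KO2 and KO3 had a median of -0.23, against -0.02 over the 9003 genes. Of the short genes 2 of 16 were above 0, and of the long ones 5 of 26. Without WT3 the log2 fold change turned sign in 8 of the 56 tested members, none of which passed with or without it: Srp68 (0.06 to -0.10), Ssr1 (0.08 to -0.01), Ssr3 (-0.01 to 0.04), Ssr4 (-0.00 to 0.24), Sec24a (0.08 to -0.10), Sec24b (0.08 to -0.10), Sec24d (0.07 to -0.13) and Copb1 (0.00 to -0.01). Values without WT3 are given below for several other members, though not for every one in which WT3 set part of the difference.

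**Figure D1:**
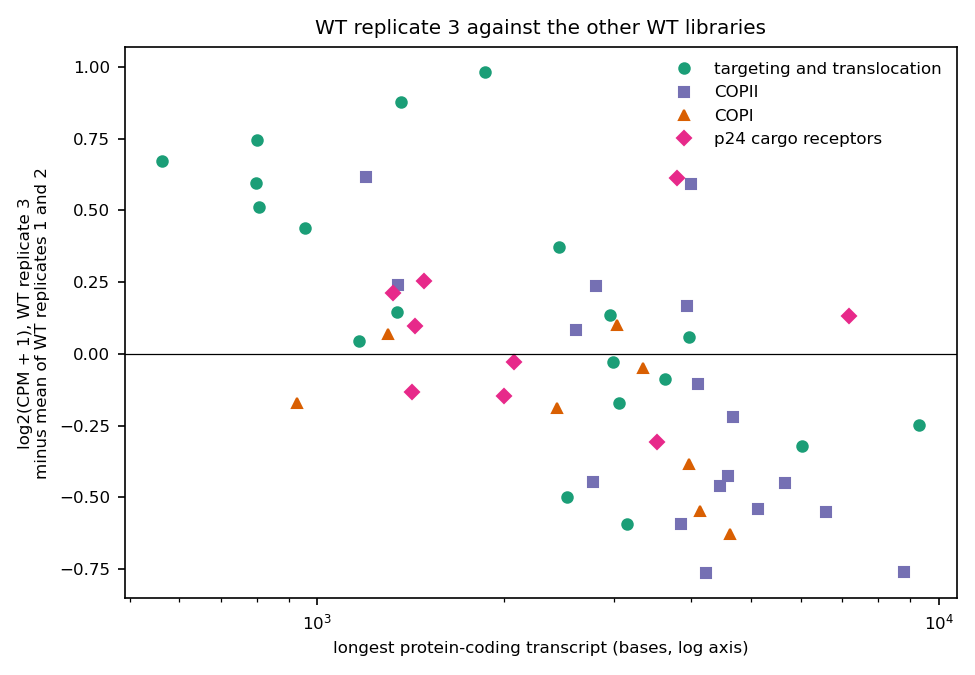
Each point is 1 tested gene of the 4 classes, with the longest protein-coding transcript in bases on a log axis against the difference in log2(CPM + 1) between WT3 and the mean of WT1 and WT2. Short genes lie mostly above 0 (14 of 16 under 1500 bases) and long genes mostly below (6 of 26 over 3000 bases above 0).

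Most of the machinery showed small differences between the genotypes, and the few called changes went both ways. Of the 58 members 56 were tested, and 11 changed, 5 higher and 6 lower in Acss2-KO, which is 19.6% against 36.5% of all tested genes. In the 4 classes proper 4 of 53 were higher and 4 lower. The background was 13.4% higher and 23.1% lower. Libraries of the genotypes did not overlap for 26 of the 56 (46.4%, against 52.9% of all tested genes). The median log2 fold change was -0.01 over the members and -0.12 over all tested genes, and the median size without sign was 0.28 against 0.45. The 2 untested members were Srp54b, at 3.31 ± 0.109 CPM in WT and 3.57 ± 0.805 CPM in Acss2-KO (SD, n = 3 each), and Tmed6, listed at 0 in 5 libraries and at 2.83 CPM in WT2.

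A member that did not pass is not shown to be equal between genotypes. The 95% interval of the log2 fold change lay within 1 in either direction, that is within a doubling or halving, for 40 of the 45 that did not pass, and reached further for 5. It lay within 0.5 for 7. The counts depended on scaling, because the median of all genes was below 0 on CPM. With median-of-ratios scaling, which moved the median of all tested genes to -0.01, 10 members were higher and 6 lower, and 1688 against 1764 of all genes (on CPM 1252 against 2161). Higher members numbered 0 without WT1, WT2, KO1 or KO3, 2 without WT3 and 5 without KO2. Lower members numbered 4 in each of the former, 6 without WT3 and 9 without KO2. With WT2 and KO1 both absent the counts were 0 higher and 4 lower. Sec22a, Tmed1, Sec14l1 and Sec14l2 passed under each alternative in which they were tested.

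**Figure D2:**
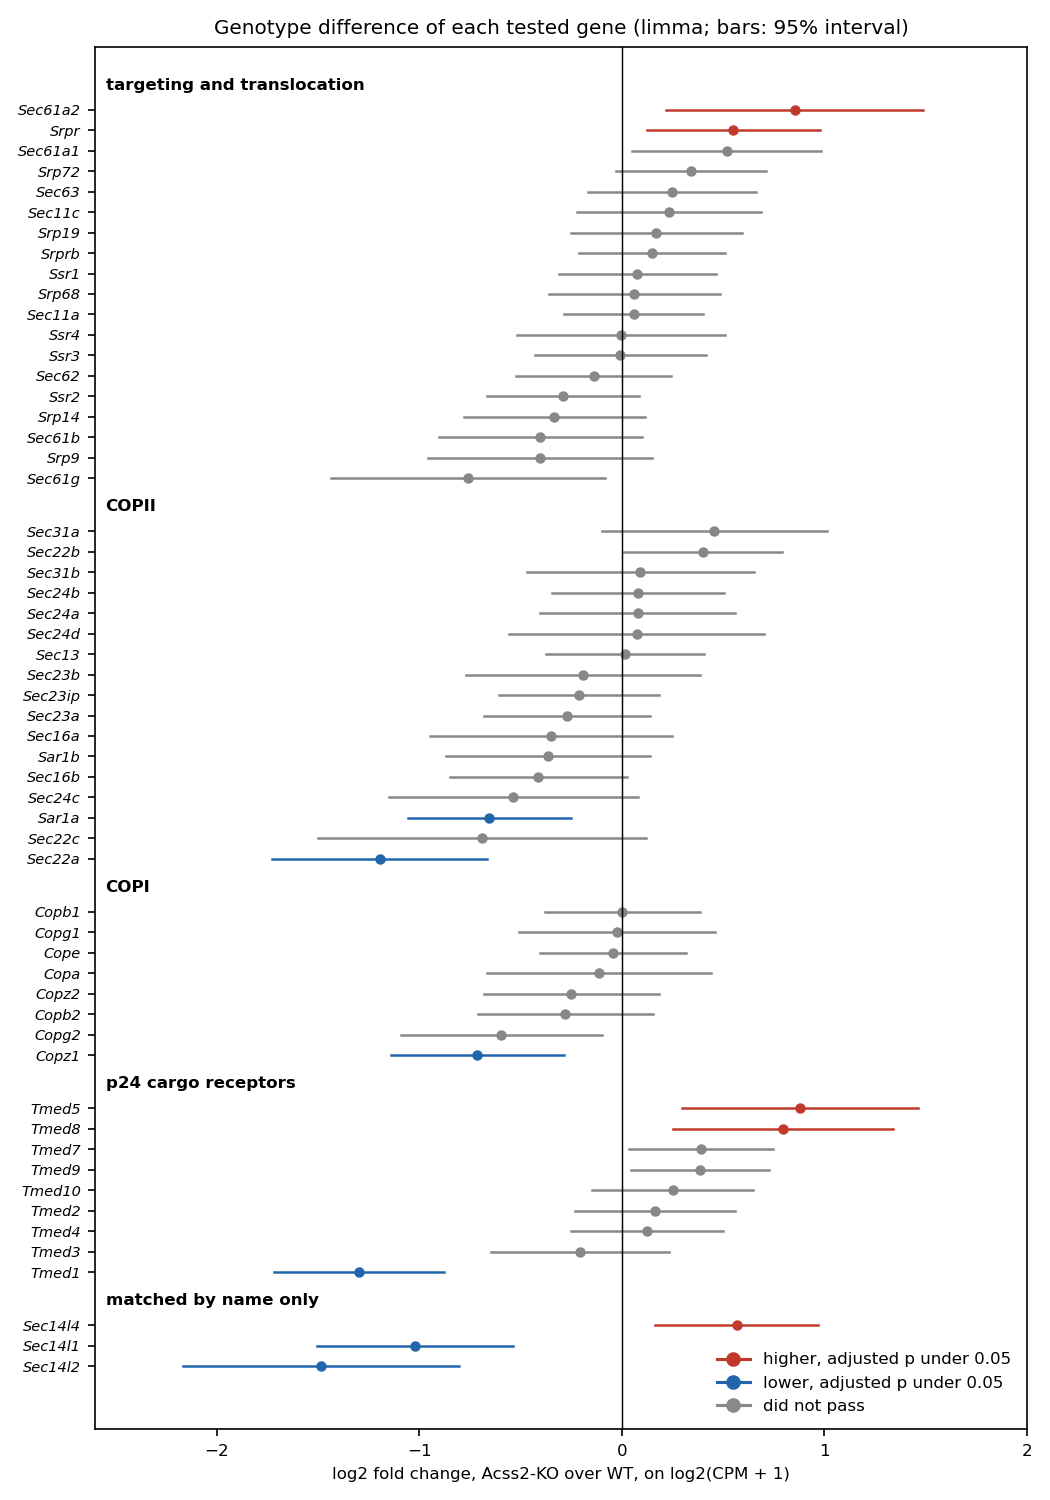
Log2 fold change of Acss2-KO over WT on log2(CPM + 1) for the 56 tested members by class, with 95% intervals from limma as bars; red marks genes called higher, blue lower, grey those that did not pass. Most intervals cross 0, and Tmed1 (-1.30), Sec22a (-1.19) and the name-only match Sec14l2 (-1.49) lie furthest to the left.

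In targeting, a receptor subunit gene changed and the tested subunits of the particle did not pass. Srp54b, also of the particle, had a mean below 5 CPM and was not tested. Srpr encodes the alpha subunit of the receptor on which the signal recognition particle docks (ENSMUSG00000032042, chromosome 9, 35200175 to 35247973 in the deposited coordinates, taken as GRCm38). It was at 176, 162 and 165 CPM in WT1 to WT3 and at 278, 205 and 261 CPM in KO1 to KO3. Every Acss2-KO library was above every WT library. The mean rose from 168 ± 7.33 to 248 ± 38.3 CPM (SD, n = 3), a 1.46-fold difference (log2 fold change 0.55, SE 0.19, limma adjusted p = 0.048). The call was at the edge of the threshold: the adjusted p was 0.11 without WT1, 0.15 without WT2, 0.067 without WT3, 0.12 without KO1 and 0.17 without KO3. Srprb, the membrane-anchored beta subunit, was at 12.2 ± 0.936 and 13.6 ± 1.14 CPM (SD, n = 3), with overlapping libraries (log2 fold change 0.15, 95% interval -0.21 to 0.51).

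Among subunits of the particle, Srp72, which with Srp68 forms its large heterodimer, was at 116, 105 and 104 CPM in WT and 135, 130 and 148 CPM in Acss2-KO. These groups did not overlap, and the gene did not pass (log2 fold change 0.34, adjusted p = 0.13; 0.045 with median-of-ratios scaling). Srp68 was at 52.0 ± 10.1 and 53.6 ± 2.79 CPM (SD, n = 3), and Srp19, which joins the particle RNA, at 13.8 ± 2.73 and 15.5 ± 1.78 CPM. Srp9 and Srp14 form the domain that pauses translation. Srp9 was at 48.5, 52.7 and 93.7 CPM in WT and 46.2, 47.8 and 46.2 CPM in Acss2-KO, and Srp14 at 31.3, 30.9 and 47.5 CPM in WT and 26.4, 28.8 and 29.7 CPM in Acss2-KO. In both, WT3 was the high library, and without it the log2 fold change went from -0.40 to -0.11 for Srp9 and from -0.33 to -0.14 for Srp14.

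The Sec61 channel genes had log2 fold changes above 0 and the small subunit genes below 0, and only the rare Sec61a2 passed. Sec61a1 encodes the channel itself and was at 117, 114 and 76.1 CPM in WT and at 136, 148 and 149 CPM in Acss2-KO. The groups did not overlap, with a log2 fold change of 0.52 (SE 0.21, limma adjusted p = 0.077). It passed with each scaling that removes the overall shift (adjusted p between 0.022 and 0.032). The low WT library was replicate 3, without which the log2 fold change was 0.32 (adjusted p = 0.096). Sec61b and Sec61g encode the small subunits. Sec61g was at 10.1, 9.19 and 19.97 CPM in WT and 5.74, 5.94 and 9.38 CPM in Acss2-KO (log2 fold change -0.76, 95% interval -1.44 to -0.08, adjusted p = 0.074), and -0.43 without WT3. Sec61b was at 24.6 ± 7.35 and 18.0 ± 2.54 CPM (SD, n = 3), with a log2 fold change of -0.40, and -0.18 without WT3. WT3 was thus the low WT library for the channel gene and the high one for both small subunit genes.

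Sec61a2 encodes a second form of the channel subunit and was rare. It was at 5.17, 2.64 and 5.13 CPM in WT and at 9.71, 5.78 and 10.2 CPM in Acss2-KO, with no overlap. The rise was 1.81-fold on the log2(CPM + 1) scale (log2 fold change 0.85, SE 0.28, adjusted p = 0.042). The call ended without WT1 (adjusted p = 0.058), WT2 (0.13), WT3 (0.074), KO1 (0.11) or KO3 (0.15). Per kilobase of its longest transcript Sec61a2 reached 1.76 ± 0.593 CPM in WT, against 32.5 ± 7.21 for Sec61a1 (SD, n = 3).

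Channel partners and signal peptidase did not pass. Sec63, which recruits the chaperone BiP to the channel, was at 133 ± 17.2 and 158 ± 14.7 CPM, and Sec62 at 119 ± 4.34 and 109 ± 12.8 CPM (SD, n = 3 each). For Sec63 the log2 fold change was 0.25, and 0.14 without WT3. The signal sequence receptor genes Ssr1, Ssr2, Ssr3 and Ssr4 had log2 fold changes of 0.08, -0.29, -0.01 and -0.00, the last at 0.24 without WT3. Ssr3, the most abundant of them in CPM, was at 182, 191 and 205 CPM in WT and 161, 208 and 211 CPM in Acss2-KO, with overlapping libraries. The signal peptidase genes Sec11a and Sec11c were at 0.06 and 0.23 on the log2 fold change scale, and at 0.11 and 0.41 without WT3. Over all 20 genes of targeting and translocation the summed level was 1308, 1268 and 1343 CPM in WT and 1369, 1429 and 1514 CPM in Acss2-KO. Each Acss2-KO sum was above each WT sum. Between the closest sums, KO1 and WT3, the gap was smaller than the difference of Srpr alone (278 and 165 CPM). That pair of sums thus separates only with Srpr counted, and what the other pairs rest on was not tested. The median log2 fold change of the class was 0.06, with 11 genes above 0 and 8 below. Of the 19 tested genes 2 were called higher and none lower (10.5% changed, against 36.5% of all tested genes).

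Of the 17 COPII genes 2 were called, both lower (11.8%, against 23.1% of all tested genes called lower). Sar1a and Sar1b encode the GTPase that starts the coat. Sar1a (ENSMUSG00000020088, chromosome 10, 61680310 to 61693295) was at 83.9, 84.4 and 89.3 CPM in WT and at 44.0, 60.1 and 60.1 CPM in Acss2-KO. WT libraries lay close together, all above the Acss2-KO libraries. The fall was 1.57-fold (log2 fold change -0.65, SE 0.18, limma adjusted p = 0.021). Adjusted p was 0.063 without WT1, 0.063 without WT2, 0.062 without KO1 and 0.054 without KO3. Sar1b, the form that is mutated in human chylomicron retention disease, was at 134, 131 and 204 CPM in WT and 102, 129 and 127 CPM in Acss2-KO (log2 fold change -0.36, adjusted p = 0.22, and -0.16 without WT3). Per kilobase of longest transcript, WT livers held 130 ± 34.2 CPM of Sar1b and 32.9 ± 1.13 CPM of Sar1a (SD, n = 3).

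Sec22a showed the largest difference among the COPII class. The Sec22 proteins share a longin domain, and Sec22b is the SNARE that lets vesicles fuse between ER and Golgi. Sec22a (ENSMUSG00000034473, chromosome 16, 35311131 to 35363918) was at 15.6, 17.9 and 25.6 CPM in WT and at 6.02, 9.78 and 8.17 CPM in Acss2-KO. The lowest WT library was above the highest Acss2-KO library. The mean fell from 19.7 ± 5.28 to 7.99 ± 1.89 CPM (SD, n = 3), 2.29-fold lower (log2 fold change -1.19, SE 0.23, limma adjusted p = 0.0059). It passed without each library in turn, with adjusted p of at most 0.027.

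Its relatives Sec22b and Sec22c did not pass. Sec22b was at 41.6, 44.0 and 50.6 CPM in WT and 51.3, 64.9 and 65.3 CPM in Acss2-KO, just without overlap and in the other direction (log2 fold change 0.40, adjusted p = 0.097; 0.045 with median-of-ratios scaling). Within a library, the log2 ratio of Sec22a to Sec22b was -1.42, -1.30 and -0.98 in WT and -3.09, -2.73 and -3.00 in Acss2-KO. The mean difference was -1.71, with an exact two-sided permutation p of 0.10, the smallest that 3 against 3 libraries can give (0.34 adjusted over 17 paralog ratios). Sec22c was at 26.5, 31.8 and 20.97 CPM in WT and 11.004, 29.7 and 11.9 CPM in Acss2-KO. KO2 lay with WT, and without it Sec22c was lower (log2 fold change -1.12, adjusted p = 0.0033), while with all libraries it did not pass (-0.69, adjusted p = 0.16).

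Sec24 proteins select the cargo, and 4 genes encode them. Sec24c was at 161, 147 and 111 CPM in WT and 67.2, 137 and 93.1 CPM in Acss2-KO (log2 fold change -0.53, adjusted p = 0.15, and -0.80 with adjusted p = 0.026 without KO2). Sec24a, Sec24b and Sec24d had log2 fold changes of 0.08, 0.08 and 0.07, and of -0.10, -0.10 and -0.13 without WT3. Among the 6 ratios between these genes, those of Sec24c to Sec24a and Sec24d did not overlap between genotypes. The log2 ratio of Sec24c to Sec24d was 0.51, 0.20 and 0.49 in WT and -0.16, -0.07 and -0.41 in Acss2-KO, and that of Sec24a to Sec24c was -0.03, 0.13 and -0.04 in WT and 0.93, 0.20 and 0.79 in Acss2-KO. Each had an exact permutation p of 0.10 (0.34 adjusted). Sec24b to Sec24c differed as much on average (0.62) but overlapped, since KO2 matched WT2. Per kilobase in WT, the order was Sec24c (31.4 ± 5.74 CPM), Sec24d (27.7 ± 6.46), Sec24a (21.6 ± 4.47) and Sec24b (6.10 ± 1.27, SD, n = 3). These SDs include shifts between libraries that the genes share, so they do not decide the order of Sec24c, Sec24d and Sec24a. Within WT libraries the log2 ratio of Sec24a to Sec24d in CPM, not divided by length, varied little (0.48, 0.33 and 0.45). Sec24b lay apart.

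**Figure D3:**
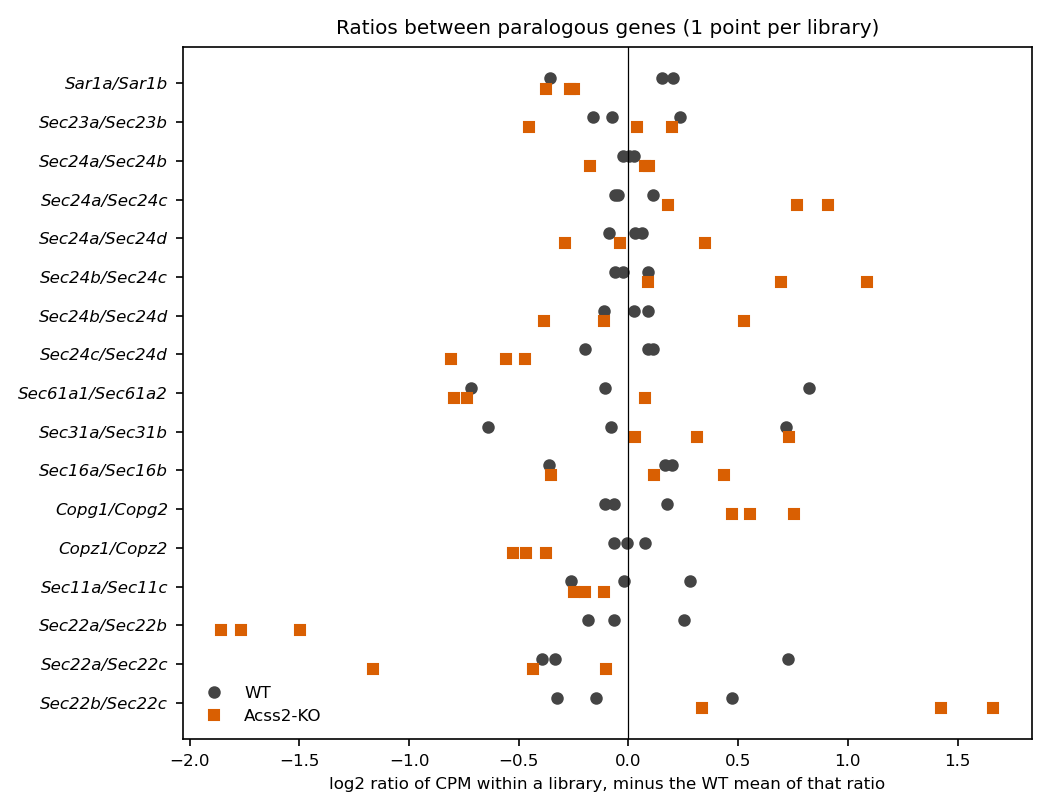
Log2 ratio of CPM between paralogous genes within each library, shown as the distance from the WT mean of that ratio; circles are WT and squares Acss2-KO libraries. The genotypes separate for 5 of 17 ratios: Sec22a/Sec22b, Sec24a/Sec24c, Sec24c/Sec24d, Copg1/Copg2 and Copz1/Copz2. Each of the 5 had an exact permutation p of 0.10 (0.34 adjusted over the 17). Ratios that share a gene are not independent.

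The rest of the COPII coat did not pass. Sec31a, of the outer layer and the most abundant COPII gene in CPM, was at 215, 201 and 122 CPM in WT and 215, 239 and 267 CPM in Acss2-KO. WT3 was the low one, and the log2 fold change of 0.46 was 0.20 without it. Sec13, which also serves in the nuclear pore, was at 61.6 ± 7.63 and 62.2 ± 6.44 CPM (SD, n = 3). Sec23a was at 112 ± 9.67 and 93.6 ± 14.1 CPM, with libraries that did not overlap, and Sec23b at 34.4 ± 6.18 and 30.7 ± 10.1 CPM. The scaffolds of ER exit sites, Sec16a and Sec16b, had log2 fold changes of -0.35 and -0.41, with -0.60 for Sec16a without WT3. Sec16b was at 145, 143 and 124 CPM in WT and 108, 120 and 83.3 CPM in Acss2-KO, without overlap (adjusted p = 0.12). Sec31b and Sec23ip were at 0.09 and -0.21. The summed COPII level was 1576, 1587 and 1314 CPM in WT and 1133, 1526 and 1407 CPM in Acss2-KO, so the genotypes overlapped.

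Sec24a and Sar1b are neighbours on chromosome 11, with 52 bases between the deposited gene spans, and are read in opposite directions. The stretch from the end of the Sec24a span to the base before the RefSeq start of Sar1b, chr11:51763635-51763662 (GRCm38.p6, plus strand), is shown because both genes start from it.
Sec24a and Sar1b intergenic stretch: gcggggcctgggacctgcggactgtcac
In the WT libraries they went apart: WT3 was the lowest WT library for Sec24a (158, 161 and 108 CPM) and the highest for Sar1b, whose longest transcripts have 6581 and 1201 bases.

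Promoter sequences of RefSeq (GRCm38.p6, 250 bases before to 50 after each start) were found for 50 of the 58 members. They were searched on both strands for motifs of the unfolded protein response, which is known to drive genes of this pathway. The ER stress response element (CCAAT, any 9 bases, CCACG) and its shorter form (ATTGG, any 1 base, CCACG) matched no member's promoter (0.119% and 0.0365% of all 32851 promoters). With shares this small, the lack of a match in so few promoters says little about the members. The core TGACGTGG, bound by XBP1 and ATF6, matched 5 member promoters and 0.676% of all promoters, and each of the 5 is a COPII or COPI class gene. They are shown with the core in capitals on the strand of the gene (CCACGTCA is the core read on the other strand), because none of these genes passed the test.
Sec24d (chr3:123267459-123267488): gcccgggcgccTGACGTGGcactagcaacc
Sec16b (chr1:157506741-157506770): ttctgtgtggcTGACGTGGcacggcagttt
Sec23a (chr12:59011993-59012022): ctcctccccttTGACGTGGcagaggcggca
Copb1 (chr7:114254690-114254719): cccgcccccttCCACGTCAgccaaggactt
Copb2 (chr9:98563713-98563742): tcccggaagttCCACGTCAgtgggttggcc
The log2 fold changes were 0.07 for Sec24d, -0.41 for Sec16b, -0.27 for Sec23a, 0.00 for Copb1 and -0.28 for Copb2, with adjusted p between 0.12 and 0.99. The palindrome TGACGTCA, the cAMP response element, matched the promoter of Cope and 1.79% of all promoters. A match describes the letters only.

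On CPM, 7 of 8 COPI genes had a log2 fold change below 0, as did 5356 of all 9355 tested genes. This direction depended on KO1: without it 4 of the 8 were above 0, and their median went from -0.18 to -0.03. With any other single library left out 0 to 2 were above 0. Of the 8 COPI genes 1 was called, lower (12.5%, against 23.1% of all tested genes called lower). Copz1 encodes the zeta subunit, one of the small subunits of coatomer (ENSMUSG00000060992, chromosome 15, 103272911 to 103299862). It was at 138, 138 and 121 CPM in WT and at 66.7, 97.0 and 79.9 CPM in Acss2-KO, with no overlap. The fall was 1.64-fold (log2 fold change -0.71, SE 0.19, limma adjusted p = 0.019). Without WT1, WT2, KO1 or KO3 the adjusted p was 0.069, 0.066, 0.057 or 0.075. Its paralog Copz2 was at 21.1, 23.3 and 19.6 CPM in WT and 13.9, 21.6 and 18.5 CPM in Acss2-KO (log2 fold change -0.25, adjusted p = 0.33). The log2 ratio of Copz1 to Copz2 was 2.71, 2.57 and 2.63 in WT and 2.26, 2.17 and 2.11 in Acss2-KO, a tight and separate pair of groups (exact permutation p = 0.10, 0.34 adjusted).

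The gamma subunits showed a similar split. Copg2 was at 36.5, 40.5 and 29.2 CPM in WT and 17.3, 29.0 and 23.9 CPM in Acss2-KO (log2 fold change -0.59, adjusted p = 0.061, and 0.022 without KO2). Copg1, the commoner form, was at 88.0, 82.7 and 58.1 CPM in WT and 62.2, 86.2 and 75.1 CPM in Acss2-KO (log2 fold change -0.02, and -0.21 without WT3). The log2 ratio of Copg1 to Copg2 was 1.27, 1.03 and 0.99 in WT and 1.85, 1.57 and 1.65 in Acss2-KO, again without overlap (exact permutation p = 0.10, 0.34 adjusted).

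The large coatomer subunits and Cope did not pass. Copa, the alpha subunit and the most abundant of the class in CPM, was at 317, 313 and 204 CPM in WT and 201, 278 and 286 CPM in Acss2-KO (log2 fold change -0.11, 95% interval -0.67 to 0.44), and the log2 fold change was -0.32 without WT3. Copb1 was at 140 ± 5.68 and 141 ± 13.4 CPM, Copb2 at 161 ± 9.99 and 134 ± 23.05 CPM, and Cope, the epsilon subunit, at 92.7 ± 4.58 and 90.1 ± 6.65 CPM (SD, n = 3 each). Of these 4, the genotypes overlapped in all but Copb2. Of the 8 genes 1 had a log2 fold change above 0 on CPM, against 3 with median-of-ratios and 4 with trimmed-mean scaling. Per kilobase in WT the subunits ranged from 8.94 ± 1.44 CPM for Copg2 to 71.3 ± 3.52 CPM for Cope (SD, n = 3).

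Of the 9 tested p24 genes 2 were called higher and 1 lower (33.3% changed, against 36.5% of all tested genes). Tmed1 (ENSMUSG00000032180, chromosome 9, 21507380 to 21510186) was at 10.5, 10.4 and 12.6 CPM in WT and at 4.72, 3.89 and 3.29 CPM in Acss2-KO. The genotypes were far apart relative to the spread within either. The mean fell from 11.2 ± 1.27 to 3.97 ± 0.718 CPM (SD, n = 3), 2.46-fold lower on the log2(CPM + 1) scale (log2 fold change -1.30, SE 0.19, limma adjusted p = 0.0018). It passed without each library in turn, with adjusted p of at most 0.015. Its span overlaps Dnm2, which did not pass (log2 fold change 0.56).

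Tmed5 belongs to the same gamma subfamily of p24 proteins as Tmed1 and went the other way. It was at 80.4, 69.1 and 115 CPM in WT and at 182, 117 and 189 CPM in Acss2-KO, where the highest WT library and the lowest Acss2-KO library almost met. The rise was 1.84-fold (log2 fold change 0.88, SE 0.26, limma adjusted p = 0.028). It was lost without WT1 (adjusted p = 0.082), WT2 (0.096), KO1 (0.075) or KO3 (0.11). The Tmed5 span overlaps Mtf2, which was also called higher (log2 fold change 0.85). The remaining tested gamma members, Tmed7 and Tmed3, did not pass. Tmed7 was at 68.4 ± 4.23 and 90.0 ± 5.98 CPM (SD, n = 3, log2 fold change 0.39, adjusted p = 0.080) and Tmed3 at 15.9 ± 1.93 and 13.7 ± 2.80 CPM (-0.20). Tmed8, a rare GOLD-domain gene of the same name, was at 4.08, 5.03 and 5.06 CPM in WT and 12.7, 6.498 and 8.46 CPM in Acss2-KO (log2 fold change 0.80, adjusted p = 0.030). Its call was lost without WT1 (0.098), WT2 (0.059), WT3 (0.073), KO1 (0.078) or KO3 (0.082).

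The most abundant p24 genes lay slightly above WT. Tmed2, the single beta member, was at 197, 194 and 191 CPM in WT and 201, 209 and 244 CPM in Acss2-KO, and Tmed10, the single delta member, at 143, 153 and 119 CPM and 158, 165 and 170 CPM. Both pairs of groups were without overlap, with log2 fold changes of 0.16 and 0.25 that did not pass. Tmed9, of the alpha subfamily, was at 51.3, 48.8 and 45.6 CPM in WT and 61.8, 66.7 and 62.7 CPM in Acss2-KO (log2 fold change 0.39, adjusted p = 0.073). Tmed7 and Tmed9 passed with each scaling that removes the overall shift, with adjusted p between 0.024 and 0.042. Tmed4 was at 81.1 ± 4.82 and 88.8 ± 10.2 CPM (SD, n = 3). The summed p24 level was 649, 653 and 654 CPM in WT and 801, 776 and 870 CPM in Acss2-KO. Of the 9 tested genes 7 had a log2 fold change above 0 on CPM and under the 4 other scalings. On CPM, 3999 of all 9355 tested genes were above 0.

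**Figure D4:**
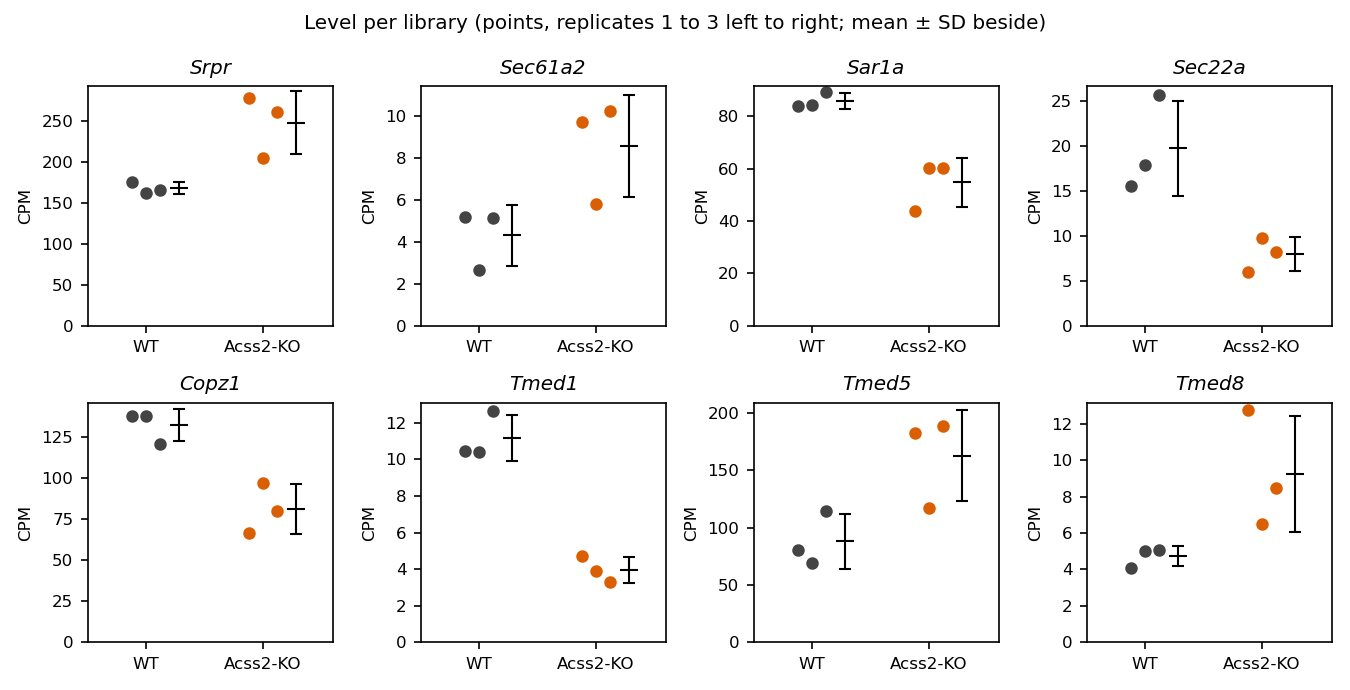
Level in CPM of the 8 called genes of the 4 classes in each library, with replicates 1 to 3 from left to right and mean ± SD (n = 3) beside the points. In each panel the genotypes do not overlap; the nearest libraries lie at 10.4 and 4.72 CPM for Tmed1 and at 115 and 117 CPM for Tmed5.

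The SEC14-type genes, which share only the name, all changed. Sec14l2, also known as tocopherol-associated protein, was at 776, 879 and 568 CPM in WT and at 199, 402 and 218 CPM in Acss2-KO (2.80-fold lower, log2 fold change -1.49, SE 0.30, limma adjusted p = 0.0067). Sec14l4 lies 49014 bases from it on chromosome 11 and went the other way, from 249, 254 and 217 CPM to 350, 347 and 370 CPM (log2 fold change 0.57, SE 0.18, adjusted p = 0.035). Its call was lost without WT1 (0.096), WT2 (0.089), KO1 (0.063) or KO3 (0.14). Sec14l1 was at 13.4, 15.2 and 8.75 CPM in WT and 5.50, 5.28 and 5.66 CPM in Acss2-KO (log2 fold change -1.02, adjusted p = 0.0075). Near-identical genes such as Sec61a1 and Sec61a2, or Srp54b and its copies, can share reads, and no source used here states how such reads were counted, so their values are uncertain. The same holds for reads on spans shared with other genes, as for Srpr (Fam118b, Foxred1 and Tirap), Sec61a2 (Nudt5), Copa (Ncstn) and Copg2 (Mest).

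Neighbouring steps of the pathway were read from lists of genes outside the families above. Of 20 tested genes of translocation and membrane insertion 2 rose and 2 fell (5 and 1 with median-of-ratios scaling). That is 20% changed, against 36.5% of all tested genes. Hspa5, the chaperone BiP that pulls chains through the channel, was at 739, 648 and 576 CPM in WT and 1136, 2210 and 2504 CPM in Acss2-KO, with no overlap and KO1 lowest of its group (log2 fold change 1.502, SE 0.30, limma adjusted p = 0.0067). Nomo1, of a translocon-associated complex, rose from 51.8 ± 11.7 to 103 ± 15.3 CPM, and Tmco1, which sits at the same complex, fell from 74.6 ± 10.2 to 42.7 ± 6.98 CPM (SD, n = 3 each). These 3 calls held without each library in turn, while that of Tmem208 (29.6 ± 7.36 to 18.8 ± 1.51 CPM) was lost in 4 of the 6 such fits (adjusted p between 0.063 and 0.13). In the oligosaccharyltransferase, which glycosylates the entering chain, 1 of 12 genes was lower (8.33% changed, against 36.5% of all tested genes). This was Tusc3 (9.63 ± 0.953 to 6.22 ± 0.921 CPM). Its call was lost in each of the 6 fits (0.055 to 0.087) and with median-of-ratios scaling, where 1 gene was higher. In the ER membrane complex 1 of 10 was lower (10% changed, against the same 36.5%). It was Emc9 (16.2 ± 1.17 to 6.68 ± 2.65 CPM, log2 fold change -1.21, adjusted p = 0.0062), whose call held in all 6.

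Of 29 tested genes of ER export beyond the COPII coat 8 were lower and none higher, 27.6% against the 23.1% of all tested genes that were lower, with a median log2 fold change of -0.39 against -0.12. Mia2 and Ctage5, both among the 8, lie close together on chromosome 12 (59095799 to 59109130 and 59129720 to 59191583). They are listed and counted separately, so the 8 may not be independent. Ergic3, a cargo receptor, was at 64.9, 67.2 and 61.4 CPM in WT and 38.6, 46.2 and 42.5 CPM in Acss2-KO (log2 fold change -0.60, adjusted p = 0.018). Rab1b, a GTPase of vesicle tethering, fell from 172 ± 5.56 to 107 ± 22.9 CPM. Ctage5, which helps bulky cargo leave the ER, fell from 377 ± 47.6 to 238 ± 19.8 CPM (SD, n = 3). The partner of Ctage5 at exit sites, Mia3 (TANGO1), was chosen after its value was seen and fell from 182 ± 47.5 to 108 ± 15.9 CPM. The count of 8 was 0 without WT1, WT2, KO1 or KO3, 5 without WT3 and 12 without KO2, and 3 with median-of-ratios scaling. Ergic3, Rab1b, Ctage5 and Mia3 each lost the call without WT1, WT2, KO1 or KO3, with adjusted p between 0.055 and 0.14.

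Among 24 tested genes of COPI function and Golgi-to-ER return 2 were lower and 1 higher (1 and 2 with median-of-ratios scaling). That is 12.5% changed, against 36.5% of all tested genes. Arfgap2, which triggers uncoating of COPI vesicles, was at 55.7, 53.4 and 55.3 CPM in WT and 33.4, 41.4 and 34.3 CPM in Acss2-KO (log2 fold change -0.59, adjusted p = 0.020). Arf5, a GTPase of the same cycle, fell from 56.9 ± 4.30 to 38.8 ± 0.618 CPM, and Gorasp2, a Golgi stacking protein, rose from 94.8 ± 15.3 to 138 ± 4.21 CPM (SD, n = 3). Each of these 3 lost its call without WT1, WT2, KO1 or KO3, and Gorasp2 also without KO2, with adjusted p between 0.052 and 0.14. Arcn1, the delta subunit of coatomer that the family names leave out, was at 157 ± 5.43 and 154 ± 22.4 CPM.

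Of 11 tested regulators of secretory genes 1 rose and 1 fell (2 and 0 with median-of-ratios scaling). That is 18.2% changed, against 36.5% of all tested genes. Atf4, a stress-response factor, rose from 89.6 ± 8.997 to 182 ± 39.1 CPM (SD, n = 3, log2 fold change 0.99, SE 0.21, limma adjusted p = 0.0079). Xbp1, whose spliced form activates ER genes, was at 175 ± 5.76 and 219 ± 2.32 CPM (log2 fold change 0.33, adjusted p = 0.15), and splicing cannot be read from gene totals. Creb3l2, a membrane-bound factor linked to Sec23 and Sec24 expression, was at 33.8, 33.6 and 18.5 CPM in WT and 16.0, 17.1 and 17.5 CPM in Acss2-KO. Its WT3 lay near the Acss2-KO libraries, and its call (adjusted p = 0.0499) was lost in 5 of the 6 fits that leave out a library (0.068 to 0.16). Creb3l3 and Atf6 had log2 fold changes of 0.18 and -0.14 and did not pass.

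In the authors' deposited table, adjusted p was below 0.05 for 8 of the 58 members, 3 higher and 5 lower in Acss2-KO, and for 27.2% of all listed genes. Of these 8 members 7 were called here with the same sign, and the other is Tmed6, at 0 in nearly every library. Srpr, Sar1a, Copz1 and Sec14l4 were called here only, with adjusted p of 0.13, 0.33, 0.27 and 0.13 in the authors' deposited table.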

How the data were processed

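Liver RNA was profiled by RNA-seq in 3 WT and 3 Acss2-KO libraries, grouped per the labels (TruSeq libraries from total RNA, per the labels' protocols). The deposited table gives log2 CPM per library, rounded to 2 decimals by the authors, with values below 1 CPM listed at 0. The unit was inferred: back on the linear scale, libraries total 997061 to 997856. The authors' p-values and log2 fold changes are also deposited, with the tool not given in the sources used here. The submitters' processing notes name Bowtie 0.12.2 and mm8 without a role; coordinates follow GRCm38.

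CPM was tested on log2(CPM + 1) with limma 3.58.1 and statmod 1.5.0 in R 4.3.3 (moderated variances, robust and trended by mean level, no covariates, minimum mean of 5 CPM, Benjamini-Hochberg, threshold 0.05). A listed 0 counts as 1 CPM. Folds are on that scale and understate low genes. Depth came from the spacing of low values: 5 CPM is 109 to 154 reads. The script was tested on simulated libraries. Lengths are the longest protein-coding transcript in GENCODE vM1. Paralog ratios used an exact permutation test.

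Alternatives were pseudocounts, scalings, filters, variance models, left-out libraries and a replicate block. The members, gene lists and tests were chosen with earlier results of these data known. Text names, in each class, up to 4 called members per direction by size, the most abundant one and non-overlapping paralog pairs, with other members to complete the account; from other lists, up to 3 by p per direction. Spans of 9 members overlap another listed gene, and strand use in counting is not given.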

Additional observations from a re-analysis of the deposited data

How the results depend on the processing

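For the counts of called members (5 higher, 6 lower), higher calls were 10 with median-of-ratios, 8 with upper-quartile, 10 with trimmed-mean and 9 with quantile scaling, 2 at a minimum of 20 CPM and 0 with WT2 and KO1 (replicate 2 of WT and replicate 1 of Acss2-KO) absent; lower calls were 3 at 20 CPM, where fewer genes (45 members) were tested. Leaving out 1 library gave 0 to 5 higher and 4 to 9 lower. In targeting and translocation (2 higher, 0 lower), higher calls were 4 with median-of-ratios, trimmed-mean and quantile scaling, 0 at 20 CPM, 0 with both absent and 0 to 2 with 1 left out. COPII (0 higher, 2 lower) had 1 higher with median-of-ratios and trimmed-mean scaling, 1 lower at 20 CPM, 1 lower with both absent and 1 to 4 lower with 1 left out. COPI (1 lower) had 0 with both absent and 0 to 2 with 1 left out. The p24 family (2 higher, 1 lower) had 4 higher with each of the 4 scalings, 1 higher and 0 lower at 20 CPM, 0 higher with both absent and 0 to 2 higher with 1 left out. All tested genes gave 741 higher and 1112 lower at 20 CPM, 715 and 1319 with both absent, and 519 to 1608 higher and 1239 to 2420 lower with 1 left out. Fewer samples or genes entered the left-out and 20 CPM fits; for the scalings the shift of all genes was removed.

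With the replicate number as a block, 3 members were higher and 9 lower, with 1 higher and 1 lower in targeting and translocation, 3 lower in COPII and 2 lower in COPI. The labels give replicate numbers but not what they share: deviations of same-numbered libraries correlated at -0.10, -0.14 and 0.09 for numbers 1, 2 and 3, and not every library correlated best with its own number, so the pairing is only a number. Pseudocounts of 0.5 and 5, no filter and a variance model without trend left each member count as reported. Over single genes and alternatives, 1089 values stayed on their side of the threshold, 167 fell short of it, 23 newly passed it, and no value that passed on either side turned sign. Of the members' 941 values under the alternatives 49 turned sign, in 14 genes, all short of the threshold.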
